A study of Mus musculus with 15 samples.

Results

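The sebaceous gland lipid genes described here are 10 genes, *Scd1*, *Scd3*, *Elovl3*, *Elovl6*, *Fasn*, *Acsbg1*, *Awat2*, *Soat1*, *Mgst1* and *Mc5r*, chosen by name and found by an exact match to the gene symbols of the deposited tables, which list 21110 genes. Their expression was measured by RNA-Seq of ear tissue in 15 libraries of 1 mouse each, all on the C57BL/6 background. The groups were wild type mice at 2 weeks (n = 4) and 10 weeks (n = 3), and *Socs3* cKO mice at 2 weeks (n = 4) and 10 weeks (n = 4). In the *Socs3* cKO mice *Socs3*, a feedback inhibitor of cytokine signalling, is deleted by Cre under the keratin 5 promoter. Keratin 5 is made by basal keratinocytes of the epidermis and hair follicle and by the outer cells of the sebaceous gland. Cells that neither made it nor descend from cells that did keep the gene. The labels call the source keratinocytes, yet genes of muscle, fibroblasts and leukocytes were also present, and the libraries are treated here as whole ear. In such bulk tissue, fewer sebaceous cells and less RNA per sebaceous cell cannot be told apart. Values are FPKM, fragments scaled to transcript length and to the mapped reads of the library, so levels can be set against each other between genes.

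The sebaceous gland opens into the hair follicle and secretes sebum by the bursting of whole cells, the sebocytes, that have filled with neutral lipid. Fatty acids made by fatty acid synthase (*Fasn*) are activated as CoA esters by enzymes such as *Acsbg1*. As such they are lengthened by elongases (*Elovl3*, *Elovl6*) and given a double bond by stearoyl-CoA desaturases (*Scd1*, *Scd3*). They are then joined to fatty alcohols by the wax synthase *Awat2* or to cholesterol by *Soat1*. *Mc5r* is the melanocortin receptor of sebocytes and *Mgst1* is a membrane-bound glutathione transferase, and mice without *Scd1* are known for shrunken sebaceous glands.

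The groups are named by their labels, and every direction below rests on those labels. *Socs3* itself had an FPKM of 9.71 to 10.3 in wild type mice against 1.25 to 12.6 in *Socs3* cKO at 2 weeks. The libraries labelled wild type at 10 weeks had 2.02 to 4.81 and those labelled *Socs3* cKO 29.8 to 47.7, so the level of the targeted gene over the whole tissue goes against the labels at that age. The sum of FPKM was 436293 to 671904 per library, and read depth could not be taken from the values. The wild type libraries at 10 weeks listed 1414 to 3176 genes at 0, against 4044 to 4423 in the others. Hair follicle markers summed to an FPKM of 2636 to 3867 in wild type mice at 2 weeks and to 7.19 to 87.9 in all the other libraries. FPKM also followed GC content differently between groups. Slopes were fitted to the deviation of each library from the mean of all 15 libraries, together with transcript length, so they are relative to that mean. Each 10 percentage points of GC went with 0.511 to 0.550 on the log2 scale in wild type mice at 2 weeks. The slopes were -0.0332 to 0.241 in wild type mice at 10 weeks and -1.37 to -0.0566 in *Socs3* cKO. The library labelled *Socs3* cKO replicate 1 at 2 weeks stood apart with the value of -1.37, and the counts and medians at 2 weeks that moved most without it are also given without it. Library numbers run in a separate range for each group, so library batch and group cannot be told apart.

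In mm9 coordinates, *Scd1* (chromosome 19, 44468941 to 44482199, minus strand) and *Scd3* (chromosome 19, 44277759 to 44318506, plus strand) lie in one cluster with *Scd2* and *Scd4*. *Elovl3* is also on chromosome 19 (46206387 to 46210184). *Awat2* (chromosome X, 97597560 to 97638056) neighbours its relatives *Dgat2l6* (97720177 to 97741483) and *Awat1* (97767590 to 97773544). *Scd1* and *Scd3* have transcripts of 4836 and 3486 bases, and 264 words of 31 bases occur in both, which are 5.67% of those of *Scd1* and 7.99% of those of *Scd3*. A read of 50 bases can be assigned to 1 of the pair only where it reaches beyond a shared stretch. The share of words found more than once in the genome was highest in *Scd3* (17.39%), *Awat2* (14.62%) and *Elovl6* (14.45%). *Fasn* has the longest transcript (9587 bases) and the highest GC content (57.37%) of the 10 genes, and the GC content of the others ranged down to 44.01% in *Elovl6*.

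The 250 bases before a transcription start were taken from RefSeq (GRCm38.p6) for 7 of the 10 genes, without *Scd1*, *Elovl3* and *Mc5r*. These 4 windows are shown because their genes had the clearest or the least stable differences below. Capitals mark CCAAT on either strand, the motif bound by NF-Y.
*Scd3*, chr19:44203038-44203287, plus strand: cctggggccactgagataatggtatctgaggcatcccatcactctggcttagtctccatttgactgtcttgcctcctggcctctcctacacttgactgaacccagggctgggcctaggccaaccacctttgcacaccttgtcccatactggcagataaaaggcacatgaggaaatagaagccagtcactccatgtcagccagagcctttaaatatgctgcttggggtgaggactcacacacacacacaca
*Awat2*, first start, chrX:100442718-100442967, minus strand: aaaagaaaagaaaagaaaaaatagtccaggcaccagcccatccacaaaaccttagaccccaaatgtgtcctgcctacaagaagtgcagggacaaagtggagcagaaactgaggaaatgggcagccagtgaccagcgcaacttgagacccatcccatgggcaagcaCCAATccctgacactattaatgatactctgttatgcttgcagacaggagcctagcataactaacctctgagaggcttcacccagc
*Mgst1*, first start, chr6:138140277-138140526, plus strand: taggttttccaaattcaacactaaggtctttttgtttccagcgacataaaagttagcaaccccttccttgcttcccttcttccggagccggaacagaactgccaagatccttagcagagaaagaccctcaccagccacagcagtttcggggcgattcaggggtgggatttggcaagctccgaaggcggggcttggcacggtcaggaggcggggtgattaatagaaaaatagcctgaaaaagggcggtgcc
*Fasn*, chr11:120824548-120824797, minus strand: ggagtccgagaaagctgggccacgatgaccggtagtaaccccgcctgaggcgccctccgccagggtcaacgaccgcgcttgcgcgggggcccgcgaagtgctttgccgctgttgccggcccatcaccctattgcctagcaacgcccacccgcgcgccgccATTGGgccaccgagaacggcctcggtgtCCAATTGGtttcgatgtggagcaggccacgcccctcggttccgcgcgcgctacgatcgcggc
In *Awat2* the match lies 85 to 81 bases before the start, on the strand of the gene. In *Fasn* matches lie 90 to 86, 62 to 58 and 59 to 55 bases before the start, and the last pair overlaps because the strands read into each other. CCAAT was found on either strand in 33.85% of 32851 promoters of the same length, and the windows of *Scd3* and *Mgst1* hold none. The TATA box letters TATAAA (12.37% of promoters) and the E-box letters CACGTG (6.02%) were searched on both strands too, and none of the 9 windows of the 7 genes holds either. The *Fasn* window is 69.2% GC, against a median of 52.4% over all promoters.

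*Scd1* was the most abundant of the 10 genes in every group, with *Mgst1* next. In the wild type at 2 weeks *Scd1* had a mean FPKM of 274 ± 13.8 (SD, n = 4), *Mgst1* 92.4 ± 8.01, *Elovl6* 71.0 ± 6.42 and *Acsbg1* 69.0 ± 3.48. *Elovl3* (35.0 ± 4.60), *Fasn* (33.7 ± 1.57), *Scd3* (21.1 ± 0.633), *Soat1* (16.8 ± 0.675), *Awat2* (12.9 ± 0.670) and *Mc5r* (4.59 ± 0.932) followed. In this order the ranges over mice of *Elovl6* and *Acsbg1* and those of *Elovl3* and *Fasn* overlapped, while the other neighbours did not. The 10 genes together took 0.133 to 0.149% of the FPKM of a library in wild type mice at 2 weeks and 0.234 to 0.458% in all the other libraries. *Scd1* made up 43.5% ± 1.09 (SD) of their summed FPKM in wild type mice at 2 weeks, 64.2% ± 3.03 in wild type mice at 10 weeks, and 60.2% ± 4.65 and 60.3% ± 2.62 in *Socs3* cKO at 2 and 10 weeks.

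**Figure D1:**
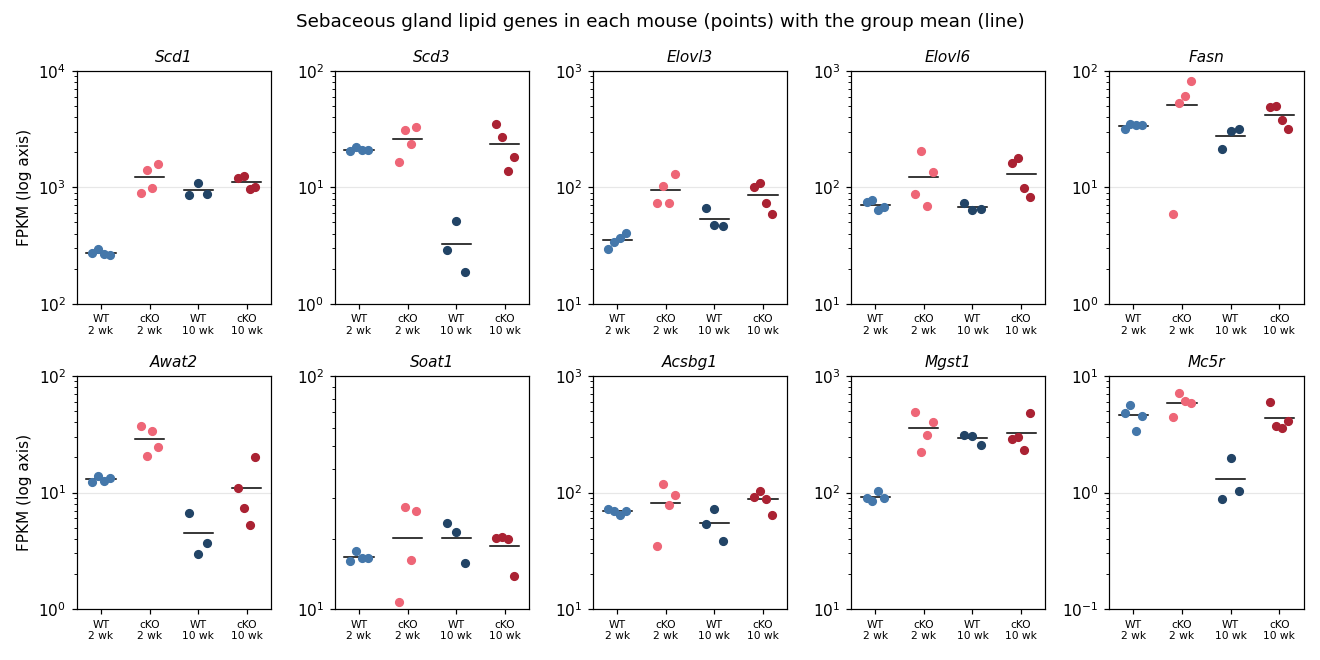
FPKM (log axis) of the 10 genes in each mouse (points), by group (x axis), with the group mean as a line. *Scd1* and *Mgst1* are low only in wild type mice at 2 weeks, *Scd3* and *Mc5r* are low only in wild type mice at 10 weeks, and *Fasn* has 1 *Socs3* cKO mouse at 5.95.

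At 2 weeks, 4 of the 10 genes were called higher in *Socs3* cKO and none lower. They were *Scd1*, *Mgst1*, *Elovl3* and *Awat2*, by 2.16-fold to 4.32-fold. A call needed an adjusted p below 0.01 in limma and an absolute log2 fold change of at least 1, and 7.24% of the 13524 genes tested were called higher and 7.19% lower. The median log2 fold change was 0.52 over the 10 genes and -0.21 over all genes tested, and 10 of 10 were above 0, as were 41.7% of all genes. Without *Socs3* cKO replicate 1 the median was 0.87 and without replicate 2 it was 0.33, with 7 of 10 above 0, and it was 1.05 with the trend of each library with transcript length and GC content removed, an alternative chosen after seeing the data. The 4 called genes were also those whose groups did not overlap. All 4 lay wholly above the wild type, as did 22.9% of all genes tested.

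The desaturases differed from each other. *Scd1*, the main desaturase of skin, had an FPKM of 271, 294, 269.9 and 262 in wild type mice and 886, 1415, 992 and 1587 in *Socs3* cKO at 2 weeks. The groups did not overlap, and the log2 fold change was 2.11 (SE 0.21, limma, adjusted p = 0.00025). *Scd3*, which in mouse skin is known from the sebaceous gland, was at 20.5, 22.0, 20.9 and 20.8 in wild type mice. In *Socs3* cKO it was 16.5, 31.1, 23.6 and 32.6, a range that takes in all the wild type mice, with a log2 fold change of 0.25 (95% interval -0.25 to 0.74, adjusted p = 0.35).

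Of the elongases, *Elovl3*, which makes very long chain fatty acids, was at 29.4, 33.9, 36.5 and 40.4 in wild type mice and at 72.7, 102, 73.7 and 130.3 in *Socs3* cKO. All the *Socs3* cKO mice were above the wild type, and the log2 fold change was 1.40 (SE 0.21, adjusted p = 0.00206, limma). *Elovl6*, which lengthens the product of *Fasn*, was at 74.4, 78.0, 63.8 and 67.7 in wild type mice and 87.3, 205, 68.5 and 134 in *Socs3* cKO. One *Socs3* cKO mouse lay among the wild type mice and the difference was not called (log2 fold change 0.68, 95% interval -0.04 to 1.39, adjusted p = 0.0992).

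The wax synthase *Awat2* was at 12.3, 13.8, 12.5 and 13.2 in wild type mice and at 37.0, 20.5, 33.7 and 24.4 in *Socs3* cKO at 2 weeks. The groups did not overlap, with a log2 fold change of 1.11 (SE 0.20, limma, adjusted p = 0.00408). The call was lost without any 1 of the wild type mice (adjusted p 0.0147 to 0.017) and without *Socs3* cKO replicate 3 (0.0148). Without replicate 1 the log2 fold change was 0.98, under the threshold, at an adjusted p of 0.000997. *Mgst1*, whose enzyme conjugates glutathione to reactive lipids and other compounds, was at 89.9, 85.3, 104 and 90.3 in wild type mice and at 488, 224, 313 and 399 in *Socs3* cKO. It was higher in 4 of 4 *Socs3* cKO mice than in any wild type mouse, by 1.89 on the log2 scale (SE 0.23, adjusted p = 0.000748, limma).

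*Soat1*, *Acsbg1*, *Mc5r* and *Fasn* were not called at 2 weeks, and their groups overlapped. *Soat1*, which stores cholesterol as esters, was at 16.1 to 17.7 in wild type mice against 10.7 to 27.4 in *Socs3* cKO. *Acsbg1*, which activates long chain fatty acids, was at 64.3 to 72.8 and 34.9 to 118. *Mc5r* was at 3.37 to 5.62 and 4.41 to 7.19. Their log2 fold changes were 0.17 (95% interval -0.49 to 0.83), 0.11 (-0.66 to 0.88) and 0.36 (-0.13 to 0.85). The value of *Acsbg1* was 0.48 without *Socs3* cKO replicate 1 (adjusted p = 0.0148, limma). With the length and GC trend removed it was 0.96 (adjusted p = 0.000244), just under the fold threshold.

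*Fasn*, the enzyme that makes palmitate, had the widest spread. It was at 31.4, 34.8, 34.3 and 34.3 in wild type mice and at 5.95, 52.6, 61.0 and 82.4 in *Socs3* cKO at 2 weeks. The lowest value came from replicate 1, the library with the steepest GC trend, and the other *Socs3* cKO mice were all above the wild type. The log2 fold change was 0.08 (95% interval -1.59 to 1.74, adjusted p = 0.935) with this library and 0.93 without it. With the length and GC trend removed it was 1.93 (adjusted p = 0.000588, limma). The part of the GC trend in the *Fasn* values was not tested further.

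**Figure D2:**
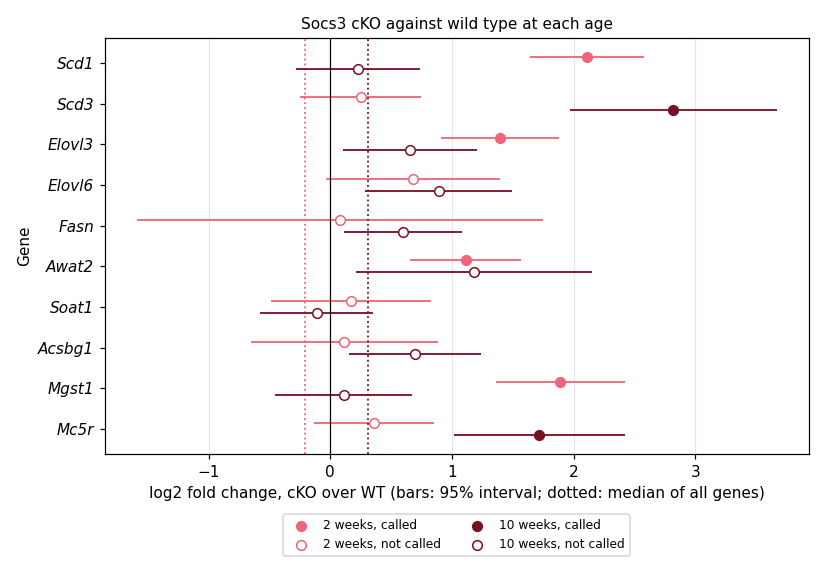
Log2 fold change of *Socs3* cKO over wild type (x axis) for each gene (y axis) at 2 and 10 weeks, with 95% intervals. Filled points were called, and dotted lines mark the median of all genes tested (-0.21 at 2 weeks, 0.31 at 10 weeks). *Scd1*, *Elovl3*, *Awat2* and *Mgst1* are filled at 2 weeks and *Scd3* and *Mc5r* at 10 weeks.

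At 10 weeks, 2 of the 10 genes were called higher in *Socs3* cKO and none lower. They were *Scd3* (7.05-fold) and *Mc5r* (3.29-fold), neither of which was called at 2 weeks. Of the 13105 genes tested 12.5% were called higher and 2.43% lower, so 2 of 10 is little above the background. All calls were 83.7% higher ones on FPKM as deposited, but 54.9% after quantile normalization and 61.7% after median-of-ratios scaling. The median log2 fold change was 0.68 over the 10 genes and 0.31 over all genes. It was 0.40 and 0.04 after median-of-ratios scaling, and 0.25 and -0.08 with the length and GC trend removed.

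*Scd3* was at 2.88, 5.09 and 1.89 in wild type mice and at 35.1, 26.8, 13.7 and 18.1 in *Socs3* cKO at 10 weeks. The groups did not overlap, and the log2 fold change was 2.82 (SE 0.38, limma, adjusted p = 0.000962). *Scd1* was at 867, 1081 and 880.0 in wild type mice and 1199.55, 1259.55, 958 and 1004 in *Socs3* cKO. These ranges overlapped and the log2 fold change was 0.23 (95% interval -0.28 to 0.74, adjusted p = 0.444), with the opposite sign after median-of-ratios scaling (-0.05) and with the length and GC trend removed (-0.46).

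*Mc5r*, the melanocortin receptor, was at 0.887, 1.99 and 1.03 in wild type mice and at 5.95, 3.73, 3.59 and 4.11 in *Socs3* cKO at 10 weeks. All the *Socs3* cKO mice were above the wild type, by 1.72 on the log2 scale (SE 0.31, adjusted p = 0.00345, limma). The call was lost without wild type replicate 1 (adjusted p = 0.0161), wild type replicate 3 (0.019) or *Socs3* cKO replicate 1 (0.011).

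*Elovl6* and *Fasn* did not overlap between the groups at 10 weeks but missed the adjusted threshold. *Elovl6* was at 73.2, 63.6 and 65.4 in wild type mice and 163, 179, 99.5 and 83.2 in *Socs3* cKO, a log2 fold change of 0.89 (SE 0.27, adjusted p = 0.028, limma). It was called without *Socs3* cKO replicate 4 (1.08, adjusted p = 0.00848). *Fasn* was at 21.4, 30.5 and 31.3 in wild type mice and 48.4, 50.1, 37.9 and 31.8 in *Socs3* cKO, a log2 fold change of 0.60 (adjusted p = 0.0536). Its sign turned to -0.30 with the length and GC trend removed. Counting *Scd3* and *Mc5r*, 4 of 10 genes lay wholly above the wild type, against 31.2% of all genes tested.

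*Awat2* was at 6.72, 2.95 and 3.71 in wild type mice and at 10.9, 7.39, 5.29 and 20.0 in *Socs3* cKO at 10 weeks. The groups overlapped by 1 mouse and the log2 fold change was 1.18 (95% interval 0.21 to 2.15, adjusted p = 0.0559, limma). *Elovl3* was at 66.7, 47.7 and 46.4 in wild type mice and at 101, 109.8, 73.6 and 58.4 in *Socs3* cKO (0.65, adjusted p = 0.0608). *Acsbg1* was at 53.2, 72.5 and 38.4 and at 91.7, 104, 88.6 and 64.6 (0.70, adjusted p = 0.0466). *Mgst1* (0.11, 95% interval -0.46 to 0.67) and *Soat1* (-0.11, 95% interval -0.58 to 0.35) overlapped widely, at 256 to 314 and 232 to 480.0 for *Mgst1* and 15.8 to 23.4 and 13.9 to 20.4 for *Soat1*. With the length and GC trend removed *Soat1* was at -0.82 (adjusted p = 0.00383, limma), under the fold threshold.

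The differences between genotypes were set against each other in one fit over the 4 groups. For *Scd1* the log2 fold change at 10 weeks was 1.88 lower than at 2 weeks (SE 0.28, limma, adjusted p = 0.000307), and for *Mgst1* it was 1.78 lower (SE 0.35, adjusted p = 0.00183). For *Scd3* it was 2.57 higher (SE 0.47, adjusted p = 0.00114). These were the 3 calls among the 10 genes, against 25.6% of the 13937 genes tested, and the median of all genes was 0.55. *Mc5r* differed by 1.36 (SE 0.38) and missed the threshold (adjusted p = 0.0114). The call of *Scd1* was lost after quantile normalization (-1.23, adjusted p = 0.0211).

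Within wild type mice, 5 of the 10 genes were called between the ages, 2 higher and 3 lower at 10 weeks. Over all 13937 genes 6.18% were called higher and 19.4% lower, with a median log2 fold change of -0.44. *Scd1* was at 262 to 294 at 2 weeks and rose to 867 to 1081 (log2 fold change 1.77, SE 0.21, adjusted p = 1.75e-05, limma), and *Mgst1*, at 85.3 to 104, rose to 256 to 314 (1.66, SE 0.26, adjusted p = 0.000212). *Scd3* was at 20.5 to 22.0 and fell to 1.89 to 5.09, a log2 fold change of -2.76 (SE 0.34, adjusted p = 3.48e-05). *Mc5r* fell by 1.80 (SE 0.28, adjusted p = 0.000207) and *Awat2* fell by 1.60 (SE 0.38, adjusted p = 0.00341) on the log2 scale. The call of *Awat2* was lost after median-of-ratios scaling (-1.21, adjusted p = 0.0281), after quantile normalization (-1.05, adjusted p = 0.0421), without wild type replicate 2 at 10 weeks (-1.35, adjusted p = 0.0171) and without replicate 3 (-1.51, adjusted p = 0.0186). *Elovl3* (0.60), *Elovl6* (-0.07), *Soat1* (0.25), *Fasn* (-0.30) and *Acsbg1* (-0.38) were not called, and with the length and GC trend removed *Fasn* was called at 1.70 (adjusted p = 0.000162).

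Within *Socs3* cKO none of the 10 genes was called between the ages in limma, and 1 had an unadjusted p below 0.05, against 3.54% of all genes called. That gene was *Awat2*, which was at 20.5 to 37.0 at 2 weeks and 5.29 to 20.0 at 10 weeks (log2 fold change -1.53, SE 0.35, adjusted p = 0.0124). *Awat2* was thus wholly lower at 10 weeks, as were 6.79% of all genes. It was called with a pseudocount of 1 (adjusted p = 0.00857) and with the length and GC trend removed (0.00496). The change of *Awat2* with age was -1.60 in wild type mice and -1.53 in *Socs3* cKO, and their difference was 0.07 (95% interval -1.03 to 1.16). The log2 fold changes of the other genes in *Socs3* cKO lay between -0.44 (*Mc5r*) and 0.22 (*Fasn*). The wild type and *Socs3* cKO comparisons with age set different libraries against each other, and each shares these with the comparisons of genotype above. Both come from one fit with a shared estimate of the spread, so their p-values are not independent. Without *Socs3* cKO replicate 1 at 2 weeks, 4519 genes were called in the wild type with age, against 3559 with it.

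**Figure D3:**
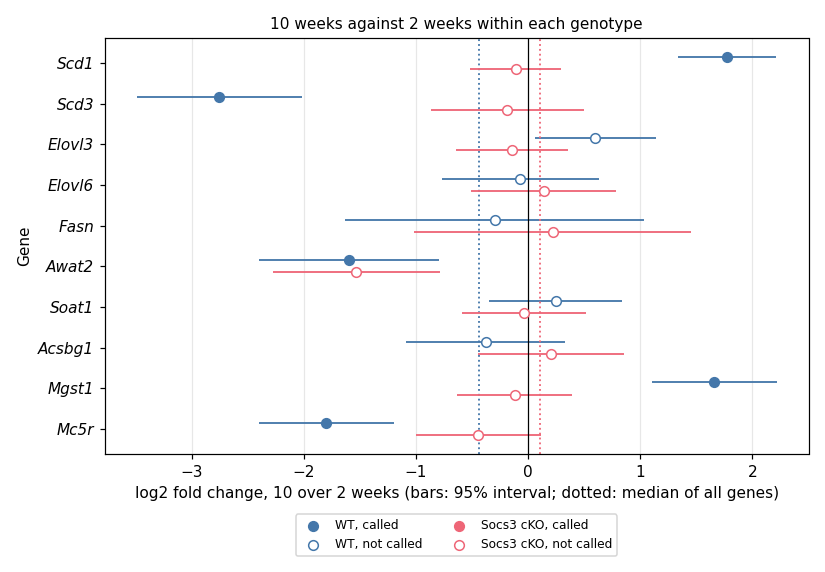
Log2 fold change from 2 to 10 weeks (x axis) for each gene (y axis) in wild type mice and in *Socs3* cKO, with 95% intervals. Filled points were called and dotted lines mark the median of all genes (-0.44 and 0.11). *Scd1* and *Mgst1* lie to the right and *Scd3*, *Mc5r* and *Awat2* to the left in wild type mice, and no point is filled in *Socs3* cKO.

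Ratios of 2 genes in the same library do not depend on scaling between libraries, but they can still carry the length and GC trend. *Scd3* FPKM was 7.47 to 7.95% of *Scd1* FPKM in wild type mice at 2 weeks against 1.86 to 2.38% in *Socs3* cKO. The 10-week mice had 0.215 to 0.471% in wild type against 1.43 to 2.93% in *Socs3* cKO. The ratio was thus lower in *Socs3* cKO than in wild type mice at 2 weeks and higher at 10 weeks, without overlap at either age. The difference in log2 ratio was -1.86 at 2 weeks (exact permutation test, 2-sided, p = 0.0286, adjusted over 8 ratios 0.114). It was 2.59 at 10 weeks (exact p = 0.0571, adjusted 0.131), and both are the smallest p these numbers of mice allow. Of the other 6 comparisons, that of *Scd1* to *Fasn* at 2 weeks did not overlap (2.04, exact p = 0.0286, adjusted 0.114). It was 1.32 without *Socs3* cKO replicate 1. These 2 genes differ in length and GC content. With the length and GC trend removed their log2 fold changes at 2 weeks were 2.31 for *Scd1* and 1.93 for *Fasn*. The part of this trend in the ratio was not tested. *Awat2* to *Soat1* and *Elovl3* to *Elovl6* overlapped at both ages. With these numbers of mice an adjusted p below 0.05 was out of reach for all 8, so the adjusted values decide nothing.

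**Figure D4:**
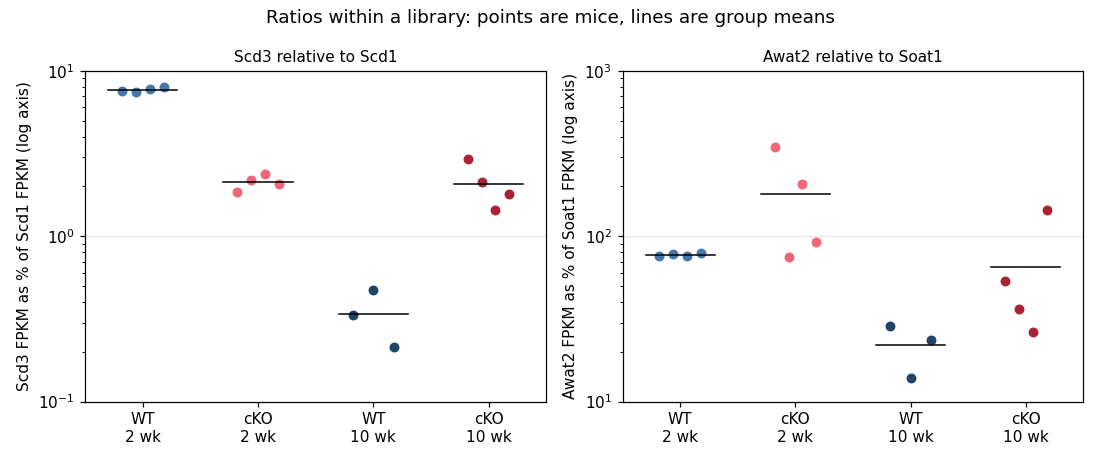
*Scd3* FPKM as a percentage of *Scd1* FPKM (left) and *Awat2* FPKM as a percentage of *Soat1* FPKM (right) in each mouse (points, log axes), with group means as lines. The left ratio separates the genotypes at both ages in opposite directions, and the right one overlaps at both.

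Among the stearoyl-CoA desaturases, *Scd1* held 75.3% ± 0.506 (SD, n = 4) of the summed FPKM of *Scd1* to *Scd4* in wild type mice at 2 weeks and 92.6% ± 1.52 in *Socs3* cKO. At 10 weeks it held 96.0% ± 1.67 (n = 3) and 93.0% ± 0.81 (n = 4). *Scd2*, the form found in brain and many other tissues, held 18.1% in wild type mice at 2 weeks and 3.48 to 4.84% as the mean of the other groups. *Scd4* was called higher in *Socs3* cKO at 10 weeks (log2 fold change 2.03, limma, adjusted p = 0.000565), at 5.49 to 9.08 against 1.47 to 2.20. Of the wax synthases on chromosome X, *Awat1* was at 29.2 to 34.4 in wild type mice against 81.8 to 130.4 in *Socs3* cKO at 2 weeks, and *Dgat2l6* at 5.73 to 7.55 and 14.0 to 28.2. Their log2 fold changes of 1.61 (adjusted p = 0.000368) and 1.56 (adjusted p = 0.00142) had the sign of that of *Awat2*.

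Counts over lists of related genes give the setting. Of all genes tested 7.24% were called higher and 7.19% lower at 2 weeks, and 12.5% and 2.43% at 10 weeks. With age 6.18% were called higher and 19.4% lower in the wild type, and 3.54% in either direction in *Socs3* cKO. Of 16 other sebaceous gland genes tested at 2 weeks, 6 were called higher and 1 lower (median log2 fold change 0.79). *Cidea*, a lipid droplet protein, was higher by 1.63 and *Awat1* by 1.61, and *Lrig1*, a stem cell marker of the upper hair follicle, was lower (-1.33, not called with the length and GC trend removed, adjusted p = 0.493). At 10 weeks 7 of 16 were called higher and none lower (median 1.18), among them *Far2*, which makes the fatty alcohols of wax (2.79) and *Elovl5* (1.68). With the length and GC trend removed, 3 of 16 were called at 10 weeks. In the wild type 1 of 17 was higher and 7 lower at 10 weeks than at 2 weeks, with *Fads2* (-2.76), *Lrig1* (-2.34) and *Far2* (-1.75) lowest. In *Socs3* cKO none of 17 was called between the ages in limma, and 2 had an unadjusted p below 0.05.

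Of 12 genes of fatty acid synthesis and its regulators, 2 were called higher at 2 weeks, *Thrsp* (2.24) and the lipogenic receptor *Pparg* (1.36), and 1 at 10 weeks, *Pparg* (1.09). The shares of all genes called higher on FPKM as deposited were 7.24% at 2 weeks and 12.5% at 10 weeks. *Pparg* was not called at 10 weeks after median-of-ratios scaling (adjusted p = 0.0226) or quantile normalization (0.035), nor in 4 of 7 fits without 1 mouse. With the trend removed the counts were 6 and 0, and the median of the list at 10 weeks turned from 0.16 to -0.31, with 1 gene higher and 5 lower at an unadjusted p below 0.05 in limma. Of 17 genes of cholesterol synthesis 8 were called higher at 2 weeks (median 0.87), led by *Sc4mol* (1.80), *Cyp51* (1.41) and *Fdft1* (1.30), and 3 at 10 weeks, with *Srebf2* among them. With the trend removed these counts were 10 and 0, with 4 higher and 1 lower at an unadjusted p below 0.05 at 10 weeks, and no gene of the list was called there without wild type replicate 1 or 3 or without *Socs3* cKO replicate 1, 2 or 3 (limma, 5 to 8 at an unadjusted p below 0.05). Of 10 genes of neutral lipid assembly and breakdown, *Mogat1* was called at 2 weeks (2.18), and *Gpam* (3.03) and *Agpat2* (1.11) at 10 weeks. The call of *Agpat2* was lost in 6 of 10 other settings, with adjusted p up to 0.0333, and in 5 of 7 fits without 1 mouse. That of *Fdft1* at 2 weeks was lost in 1 of 10 other settings and in 6 of 8 fits without 1 mouse (limma, adjusted p up to 0.0138). Without *Socs3* cKO replicate 1 the counts at 2 weeks were 3 of 12, 11 of 17 and 3 of 10. Over all fits without 1 mouse they ranged from 1 to 3, 5 to 11 and 0 to 3.

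**Figure D5:**
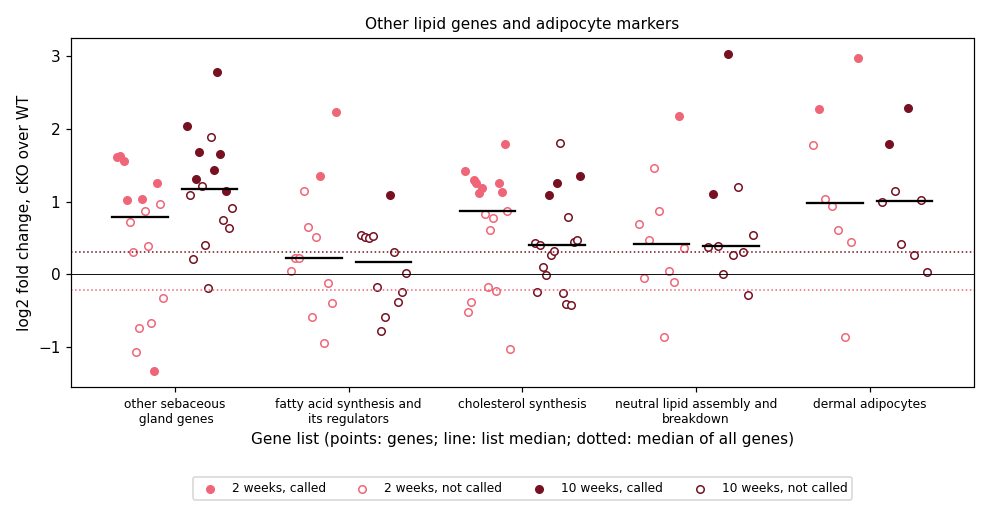
Log2 fold change of *Socs3* cKO over wild type (y axis) for each gene of 4 lipid lists and of the adipocyte markers (x axis) at 2 and 10 weeks. Filled points were called, lines are list medians and dotted lines are the medians of all genes (-0.21 and 0.31). The medians of the other sebaceous gland genes are 0.79 and 1.18.

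Markers of other cells that handle lipid, or that share the follicle, moved with the groups. For the counts below, 7.24% of all genes were called higher and 7.19% lower at 2 weeks, and 12.5% and 2.43% at 10 weeks. The 8 adipocyte markers summed to an FPKM of 237 to 272 in wild type mice against 425 to 837 in *Socs3* cKO at 2 weeks. At 10 weeks the sums were 339 to 458 against 422 to 812. At 2 weeks 2 of 8 were called higher, *Retn* (2.98) and *Cfd* (2.28), and 4 of 8 without *Socs3* cKO replicate 1. Over all fits without 1 mouse this count ranged from 1 to 4. At 10 weeks 2 of 8 were called higher, *Lep* (2.29) and *Cfd* (1.79). The call of *Cfd* at 10 weeks was lost in 4 of 10 other settings, with adjusted p up to 0.0164, and in 5 of 7 fits without 1 mouse. Its call at 2 weeks was lost in 1 of 10 other settings and in 5 of 8 fits without 1 mouse (limma, adjusted p up to 0.0201). *Scd1*, *Elovl6*, *Fasn* and *Mgst1* are also expressed by adipocytes, and the part of these cells in their values was not tested. The 12 hair follicle markers tested were all called lower in *Socs3* cKO at 2 weeks (summed FPKM 10.3 to 72.7). At 10 weeks they summed to 9.97 to 12.2 in wild type mice against 7.19 to 87.9 in *Socs3* cKO, and none of the 3 tested was called in limma (1 at an unadjusted p below 0.05). Muscle markers were called higher in 4 of 6 cases at 2 weeks (summed FPKM 619 to 942 against 1548 to 2880) and lower in 1 of 6 at 10 weeks. Leukocyte markers were called in 0 of 5 at 2 weeks in limma, with 4 at an unadjusted p below 0.05, and in 3 of 5 at 10 weeks (summed FPKM 232 to 392 against 533 to 943). Fibroblast markers were called higher in 1 and lower in 3 of 6 at 2 weeks. Without *Socs3* cKO replicate 1 the counts were 0 and 3, and with the trend removed 0 and 1. Of 7 epidermal markers *Krt14* was called higher at 2 weeks and *Lor* lower at 10 weeks. The call of *Krt14* was lost without *Socs3* cKO replicate 1, in 7 of 8 fits without 1 mouse, and in 4 of 10 other settings, such as quantile normalization (0.24, adjusted p = 0.345). The part of each of these cell types in the sebaceous genes was not tested.

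Across the 15 libraries, the 10 genes did not form one block. As a description, the Pearson r of log2 levels was 0.95 between *Scd3* and *Mc5r*, 0.89 between *Scd1* and *Mgst1*, and 0.87 between *Scd1* and *Elovl3*, but -0.05 between *Scd1* and *Scd3*. The median over all 45 pairs was 0.33 with 10 pairs below 0, and the points share library and GC trend. Without *Socs3* cKO replicate 1 at 2 weeks the median was 0.54, with 7 pairs below 0. Taken as deviations from the group means, 8 of the genes had r of 0.46 to 0.89 with the mean of the others, while *Awat2* (-0.35) and *Mgst1* (-0.39) ran opposite. Without that library the 8 genes had r of 0.34 (*Fasn*) to 0.87 (*Scd1*), *Awat2* was at -0.32 and *Mgst1* at -0.09.

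The genes whose levels over the 15 libraries were most like the mean of the 10, each scaled to the same spread, were *Ermp1* (r = 0.94), *Scd4* (0.93), *Sdr42e1* (0.92), *Sec14l4* (0.91) and *Hp* (0.91). *Slc26a2*, *Rdh16*, *Dgat2l6*, *Gprin2* and *Pex19* followed at 0.89 to 0.90. *Scd4* is the nearest relative of the desaturases in this group and *Dgat2l6* is a relative of *Awat2*. Without *Socs3* cKO replicate 1 at 2 weeks these 10 genes kept r of 0.89 to 0.95.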

How the data were processed

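RNA was sequenced as single reads of 50 bases and aligned by the authors to mm9. The submitters' processing notes name TopHat2 (2.1.0) and Cufflinks. The authors deposited 1 table of FPKM values per library for 21110 genes, normalized for transcript length and mapped reads. Counts were not used here, and the depth of a library is unknown. The paper states more wild type mice than the 4 and 3 used, and the others were not analysed here. The 10 genes and all lists were chosen with earlier results of these data known.

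Values were analysed as log2(FPKM + 0.1), so fold changes of low genes are understated. The test was limma (3.58.1, run in R 4.3.3) with trended prior variance, 2-sided, on genes that reached an FPKM of 1 in 3 or more libraries of a fit, with Benjamini-Hochberg adjustment over all genes tested. All 10 genes passed this filter in every fit. Each age was fitted on its own, and interaction and age effects on all 4 groups. Called genes had an adjusted p below 0.01 and an absolute log2 fold change of at least 1 (interaction: adjusted p only). The step was tested on simulated data. Ratios were tested with exact permutation tests. Up to 3 genes per list are named, those with the largest called changes, and further genes were named after their values were seen. *Scd2*, *Scd4*, *Awat1* and *Dgat2l6* are shown as family relatives. Python 3.11.15 was used for summaries. Alternatives covered pseudocount, filter, scaling, block, prior and libraries left out. Gene positions are from GENCODE on mm9 and promoters from RefSeq.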

Additional observations from a re-analysis of the deposited data

Results flagged for a closer look

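The difference between genotypes changed with age in 3 of the 10 genes by the interaction term in limma. Over all 13937 genes tested 25.6% were called, so this count is near the background. The log2 fold change at 10 weeks minus that at 2 weeks was -1.88 for *Scd1* (adjusted p = 0.000307), 2.57 for *Scd3* (adjusted p = 0.00114) and -1.78 for *Mgst1* (adjusted p = 0.00183). In 2 of 30 groups of 4 mice, 1 mouse lay far from the rest by Dixon's criterion, which chance gives in about 1 of 20. *Soat1* was at 13.9 in *Socs3* cKO replicate 4 at 10 weeks, below the 20.0 to 20.4 of the others. *Fasn* was at 31.4 in wild type replicate 1 at 2 weeks, against 34.3 to 34.8.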

How the results depend on the processing

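The alternatives kept the direction of all calls among the 10 genes. FPKM without counts limits the precision of low genes such as *Mc5r*. The replicate numbers do not pair the mice (correlation of same-numbered deviations -0.057 to 0.057 at 2 weeks and -0.203 to 0.036 at 10 weeks, 0 mice nearest to their own number). With the replicate number as a block, genes called at 2 weeks numbered 751 against 1951 without it, *Awat2* was not called there (adjusted p = 0.0192), and *Elovl6* was called at 10 weeks (1.08, adjusted p = 0.0086). The cause of the changes below was not tested.

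One fit over all 4 groups called 3300 genes at 2 weeks, without *Awat2* (adjusted p = 0.0164). Removing the length and GC trend, chosen after seeing the data, gave 1282 genes at 10 weeks, 2286 in the wild type with age and 741 in *Socs3* cKO with age. Of the 10 genes 5 were then called for the interaction, against 3260 of all 13368 genes tested, and 1 for *Socs3* cKO with age. A pseudocount of 1 also called 1 gene in *Socs3* cKO with age, and a fit of the 2 groups alone called 146 genes there. With the trend removed *Mc5r* (1.55, adjusted p = 0.00682) and *Fasn* (-2.19, adjusted p = 0.000435) were called for the interaction, *Fasn* with the sign opposite to its value of 0.52 in the report's fit, and with median-of-ratios scaling *Elovl3* was (-1.21, adjusted p = 0.00775).

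Signs turned in values that were not called on FPKM as deposited. At 2 weeks *Acsbg1* was -0.0801 after quantile normalization. At 10 weeks the values were -0.0524 for *Scd1* and -0.17 for *Mgst1* after median-of-ratios scaling, -0.46 for *Scd1*, -0.30 for *Fasn* and -0.0594 for *Mgst1* with the trend removed, and 0.0214 for *Soat1* and -0.0952 for *Mgst1* with the block. The interaction was -0.26 for *Elovl6* and -0.40 for *Awat2* with median-of-ratios scaling, -0.53 for *Awat2* with quantile normalization, -0.0319 for *Awat2* with the block, -0.0293 for *Awat2* with a pseudocount of 1, and -0.47 for *Elovl6*, -0.21 for *Awat2*, -2.19 for *Fasn* and -0.54 for *Acsbg1* with the trend removed. The wild type change with age was 0.32 for *Elovl6*, 0.0912 for *Fasn* and 0.0115 for *Acsbg1* with median-of-ratios scaling, and 0.54, 1.70 and 0.44 with the trend removed. The *Socs3* cKO change with age was 0.0951 for *Scd1* and 0.0466 for *Mgst1* after quantile normalization, and -0.49 for *Fasn*, -0.10 for *Acsbg1* and 0.11 for *Mgst1* with the trend removed.

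Leaving out 1 mouse at a time gave 3 to 4 of the 10 genes called at 2 weeks, 1 to 3 at 10 weeks, 3 to 4 for the interaction, 4 to 5 in the wild type with age and 0 to 1 in *Socs3* cKO with age. Over all genes these were 859 to 3348, 745 to 2665, 1994 to 5117, 2205 to 4519 and 300 to 700. Log2 values that changed sign ranged at 2 weeks from -0.0089 to 0.44 for *Soat1*, -0.33 to 0.93 for *Fasn* and -0.11 to 0.48 for *Acsbg1*. At 10 weeks they ranged from -0.28 to 0.0214 for *Soat1* and -0.0952 to 0.25 for *Mgst1*. The interaction ranged from -0.0302 to 0.50 for *Elovl6*, -0.28 to 0.40 for *Awat2* and -0.33 to 0.92 for *Fasn*. The *Socs3* cKO change with age ranged from -0.25 to 0.0298 for *Scd1*, -0.41 to 0.0391 for *Scd3*, -0.28 to 0.0261 for *Elovl3*, -0.10 to 0.42 for *Elovl6*, -0.31 to 0.14 for *Soat1*, -0.63 to 0.62 for *Fasn*, -0.16 to 0.42 for *Acsbg1* and -0.33 to 0.05 for *Mgst1*.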

Other observations

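Within groups, the genes whose deviations from the group means were most like the mean of the 10 over the 15 libraries were *Ccnd1* (r = 0.95), *Fam82a2* (0.93), *Endod1* (0.93), *Cdr2* (0.92) and *Ptplb* (0.92). Without *Socs3* cKO replicate 1 at 2 weeks their r were 0.92, 0.87, 0.92, 0.85 and 0.96. *Ccnd1* encodes cyclin D1 and *Ptplb* an enzyme of very long chain fatty acid elongation. These are descriptions over libraries that share the GC trend. The very long chain elongase *Elovl4* held 34.2 to 41.8% of the summed FPKM of *Elovl1* to *Elovl7* in the wild type at 10 weeks and 46.8 to 50.8% in all the other libraries.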
